A study of Bos taurus with 6 samples.

Results

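Secreted and membrane proteins enter the endoplasmic reticulum through a translocation channel and leave it in coated vesicles, and the genes of both steps were described here in single bovine morulae. The genes were chosen by symbol: those of the signal recognition particle, the SEC61 channel and its partners, signal peptidase, oligosaccharyltransferase, the COPII and COPI coats, and the TMED and SURF4 cargo receptors. The symbols matched 68 of 13683 annotated genes, a rule that reads no measured value, although the set was picked with earlier results of these data known. Of these, 61 have one of these roles and 7 (SSRP1, SEC1 and SEC14L1 to SEC14L5) were matched by their letters only. SPCS2, SRPRB, SEC16A, SEC24B and SEC24D, further genes of the pathway, were not analysed here.

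The 6 libraries each came from 1 morula produced by in vitro fertilization and collected on day 6, 144 h after insemination. From 72 h, at the stage of 8 to 16 cells, 3 control embryos were cultured with 0.1% DMSO and 3 MAT2A-inhibited embryos with 20 µM FIDAS-5. FIDAS-5 inhibits MAT2A, the enzyme that makes S-adenosylmethionine, and DMSO is its solvent; whether the treated medium also held DMSO is not in the labels. All embryos were kept in mSOF medium with bovine serum albumin at 5% oxygen. Whether embryos of a group were cultured apart is not stated, and p-values then reflect only the scatter among these embryos.

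The signal recognition particle binds a signal peptide as it leaves the ribosome and brings the ribosome to its receptor on the endoplasmic reticulum, where the peptide enters the SEC61 channel. Signal peptidase cuts the signal peptide off and oligosaccharyltransferase attaches sugar chains to the growing protein. COPII vesicles then carry cargo forward to the Golgi, and COPI vesicles bring receptors and escaped residents back. A morula is building its first epithelium, whose membrane proteins of junctions and transport pass along this route.

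Depth was 46500000 to 59900000 fragments per library, recovered from steps in the deposited values. The pluripotency markers POU5F1 (255 to 431 FPKM) and SOX2 (27.6 to 50.8 FPKM) were present in every library. SOX2 was at least 45.2 FPKM with FIDAS-5 and at most 41.5 FPKM without it. NANOG, another such marker, was lower in each treated embryo (1.165, 1.71 and 1.883 FPKM) than in any control (4.577, 20.323 and 2.54 FPKM). Markers of cumulus cells summed to 61.6 to 129 FPKM in controls and 43.5 to 83.5 FPKM in MAT2A-inhibited morulae, with PTX3 at 0 in all 6 and SERPINE2 giving most of the sum. Trophectoderm markers, 4 of 4 with a row, summed to 19.9 to 850.1 FPKM in controls and 86.7 to 383 FPKM after treatment. Of 12 Y-linked genes listed, 5 have a row, and they summed to 58.2 and 118 FPKM in MAT2A-inhibited morulae 2 and 3 and to at most 0.193 FPKM in the other 4 libraries. Sperm markers, 3 of 3 with a row, summed to 2.53 to 4.79 FPKM in controls and to 5.13 to 11.5 FPKM with FIDAS-5, without overlap. Each single sperm marker overlapped between the groups. Haemoglobin transcripts, 2 of 2 with a row, summed to 63.1 to 132 FPKM and 81.9 to 109.8 FPKM, with HBB at 0 in 4 libraries. NANOG, SOX2 and the sperm marker sum thus separated the groups, whereas Y-linked transcripts exceeded 0.193 FPKM only in MAT2A-inhibited morulae 2 and 3. The part of these differences in the results was not tested. In whole embryos, a smaller share of cells of a type and less of a transcript per cell cannot be told apart.

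No gene of the pathway passed the test between MAT2A-inhibited and control morulae. Of 57 genes with enough expression to be tested (1 FPKM or more in at least 3 libraries), 0 had an adjusted p below 0.05 by limma on log2(FPKM + 1), in either direction. Over all 7319 genes tested 0.041% were called, 0.0273% higher and 0.0137% lower. Before adjustment 6 of the 57 had p below 0.05, all higher after treatment. By that rule 6.64% of all genes passed, 3.7% higher and 2.94% lower. The lowest adjusted p of the 57 was 0.688, for SEC61B. In simulated libraries of the same size and spread this test recovered 24.5% of 2-fold and 74.3% of 4-fold changes, so most 2-fold differences would be missed.

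The values themselves were more often higher than lower after treatment, a count that carries no test. For 12 of the 57 genes all 3 treated embryos lay above all 3 controls, and for 0 they all lay below. Over all genes tested these shares were 8.27% above and 5.18% below. The 57 genes were more abundant than all genes tested, with a median mean level of 49.0 against 12.8 FPKM. They also scattered less, with a median within-group SD of 0.33 against 0.40 on the log2 scale. All genes tested are therefore not a background of like level and scatter. The median log2 fold change was 0.14, against 0.04 over all genes tested, and 39 of the 57 (68.4%) were above 0, against 54.2%. The 12 genes were SEC61A1, SEC61B and SEC61G of the channel, SRPR, SRP68 and SRP72 of targeting, SEC11C of signal peptidase, COPA and COPG1 of COPI, SURF4 and TMED10 of cargo selection, and SSRP1, a histone chaperone matched by its letters.

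The treated embryos differed among themselves. Relative to the control mean, the median of the 57 genes was 0.07 on the log2 scale in MAT2A-inhibited morula 1, 0.24 in morula 2 and 0.32 in morula 3. The same median over all genes was 0.04 to 0.06 in these 3 libraries. Morulae 2 and 3, which stood higher, are the embryos with Y-linked transcripts. Without them the median log2 fold change was 0.07, from 1 treated embryo, and without MAT2A-inhibited morula 1 it was 0.26.

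**Figure D1:**
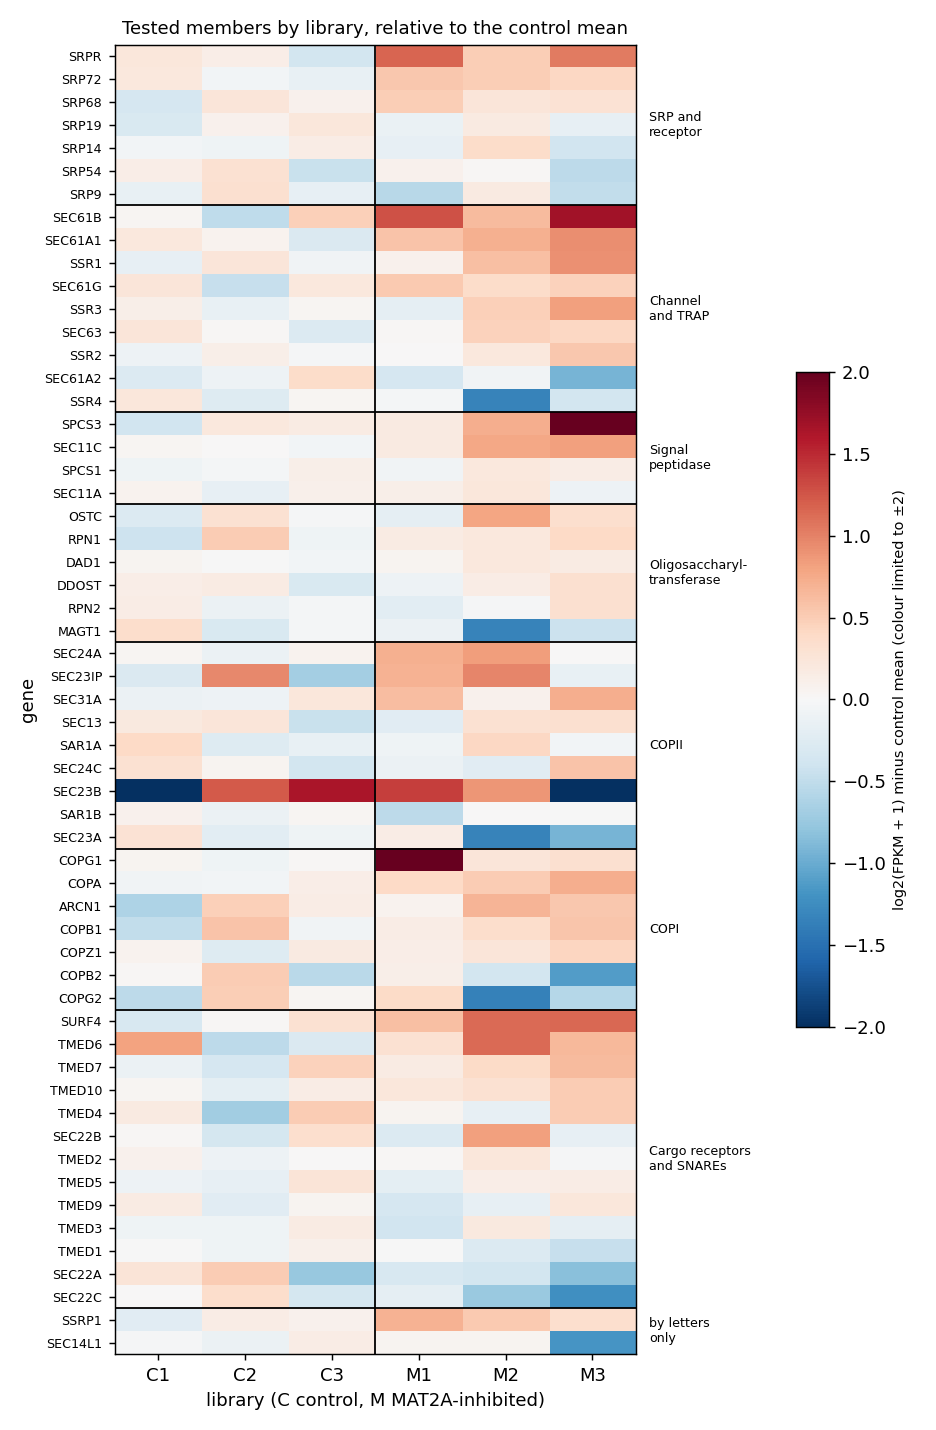
Each line is one of the 57 tested genes, grouped by role and ordered by fold change, and each column one library. Colour gives log2(FPKM + 1) minus the control mean of that gene (red above, blue below, limited to ±2). Values above the control mean number 44 of 57 in MAT2A-inhibited morula 2 and 35 of 57 in each of morulae 1 and 3, and SEC23B is far below it in control 1 and morula 3.

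Summed over the 66 genes that no library merged with a neighbour (all but COPE and SEC62), expression was 14997, 13108 and 15905 FPKM in the control embryos, and 17577, 18043 and 20520 FPKM with FIDAS-5. This was 1.4% to 1.64% of the FPKM of all annotated rows in controls and 1.85% to 2.12% after treatment, and the groups did not overlap. SEC61G alone made up much of the sum. Without it the sum was 8699.5, 9222 and 9736 FPKM in the control embryos, and 9883, 11199 and 13181 FPKM with FIDAS-5. Control 3 then lay next to MAT2A-inhibited morula 1. The means of this smaller sum were 9219 and 11421 FPKM. Most of their difference came from SEC61B (means 657 and 1518 FPKM) and SPCS3 (728 and 1715 FPKM). SPCS3 reached 3151 FPKM in MAT2A-inhibited morula 3. The sums thus mainly follow a few abundant genes and do not show a rise across the set.

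The targeting genes had 3 of 7 above 0 and a median log2 fold change of -0.04, and their small subunits were the most abundant. SRP14 and SRP9, the pair that pauses translation, had mean levels of 919 and 657 FPKM over all libraries. SRP14 was at 889.8, 867 and 1025 FPKM in the 3 controls, compared with 825, 1199 and 708 FPKM in the treated embryos, and the groups overlapped. SRP9 was at 639.9, 882 and 629 FPKM against 483, 802 and 506 FPKM, also with overlap (log2 fold change -0.29). By the midpoints of the deposited confidence bounds, SRP9 lay below all controls in all 3 treated embryos, at 650.3, 897 and 635 FPKM against 283, 480 and 513 FPKM (-0.80). SRP19, which helps the particle assemble, and SRP54, which binds the signal peptide, had log2 fold changes of -0.04 and -0.14.

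The 2 large subunits were low but tight. SRP72 was at 19.5, 15.9 and 14.9 FPKM in the control embryos, and 24.8, 23.9 and 22.5 FPKM with FIDAS-5 (log2 fold change 0.49 ± 0.23 SE, limma adjusted p = 0.75). Its partner SRP68 was at 12.3, 18.7 and 16.7 FPKM against 22.5, 18.8 and 19.3 FPKM (0.34 ± 0.26). All treated embryos lay above all controls for both, for SRP68 by a margin far inside the spread of the controls.

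SRPR, the receptor subunit that docks the particle, was at 22.8, 21.4 and 14.8 FPKM without the inhibitor and 44.5, 27.5 and 40.8 FPKM with it (0.89 ± 0.29, limma adjusted p = 0.701). The symbol has 2 separate rows on chromosome 29 of bosTau8. The short one (29983303 to 29983888, 586 bases) overlaps a row of FAM118B and was at 17.0, 16.3 and 8.94 FPKM in the 3 controls, compared with 34.7, 23.3 and 33.5 FPKM in the treated embryos. The long one (29986077 to 29991203) was at 5.81, 5.10 and 5.89 FPKM against 9.80, 4.25 and 7.24 FPKM. The groups overlapped on the long row (log2 difference 0.24, exact two-sided permutation p = 0.5), so the separation of SRPR rested on the short one, whose FPKM lay above its bounds in all 6 libraries. Strand is not stated to have been used in counting, so reads there cannot be told apart from those of FAM118B.

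Channel subunits gave the smallest p of the pathway. SEC61B, the small beta subunit (chromosome 8, 64722966 to 64731270), was at 650.0, 442 and 879 FPKM in the control embryos, and 1534, 986 and 2035 FPKM with FIDAS-5. The means were 657 ± 219 and 1518 ± 525 FPKM (SD, n = 3, exact permutation p = 0.1, the smallest that 3 against 3 can give). Its log2 fold change was 1.20 ± 0.33 (limma adjusted p = 0.688), and 0.94 to 1.48 with any 1 library left out. Only in MAT2A-inhibited morula 1 did the row of SEC61B start at 64722732 and overlap a row of ALG2. SEC61A1, the subunit that forms the pore, was at 19.6, 17.6 and 13.5 FPKM against 25.3, 28.0 and 32.9 FPKM (0.74 ± 0.25, limma adjusted p = 0.708).

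SEC61G, the gamma subunit (chromosome 22, 1445067 to 1451957), ranked 12 of 7319 genes by mean level. It was at 6298, 3886 and 6169 FPKM without the inhibitor and 7695, 6844 and 7339 FPKM with it (0.45 ± 0.20, limma adjusted p = 0.75), and 0.23 without control 2. SEC61A2, an alternative pore subunit, had a lower mean after treatment, at 28.3, 32.0 and 44.4 FPKM against 27.1, 32.7 and 17.5 FPKM, with overlap. The subunits of this channel thus differed in level, per length, from 22.8 FPKM for SEC61A1 to 6372 FPKM for SEC61G as means over all libraries.

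The deposited confidence bounds of SEC61B and SEC61G did not always hold their own FPKM value. For SEC61B the FPKM lay above the bounds in all 3 controls, whose bound midpoints were 475, 316 and 636 FPKM. In MAT2A-inhibited morulae the midpoints, 1555, 1001 and 2063 FPKM, lay close to the FPKM values. Taking midpoints, the log2 fold change of SEC61B was 1.69 (limma adjusted p = 0.593). For SEC61G the midpoints were 2950, 3944 and 2815 FPKM in the 3 controls, compared with 3715, 6954 and 7460 FPKM in the treated embryos, so that the groups overlapped (control 2 above MAT2A-inhibited morula 1). The low midpoints of SEC61G fell in the 3 libraries where the gene kept its reference model (controls 1 and 3 and MAT2A-inhibited morula 1).

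**Figure D2:**
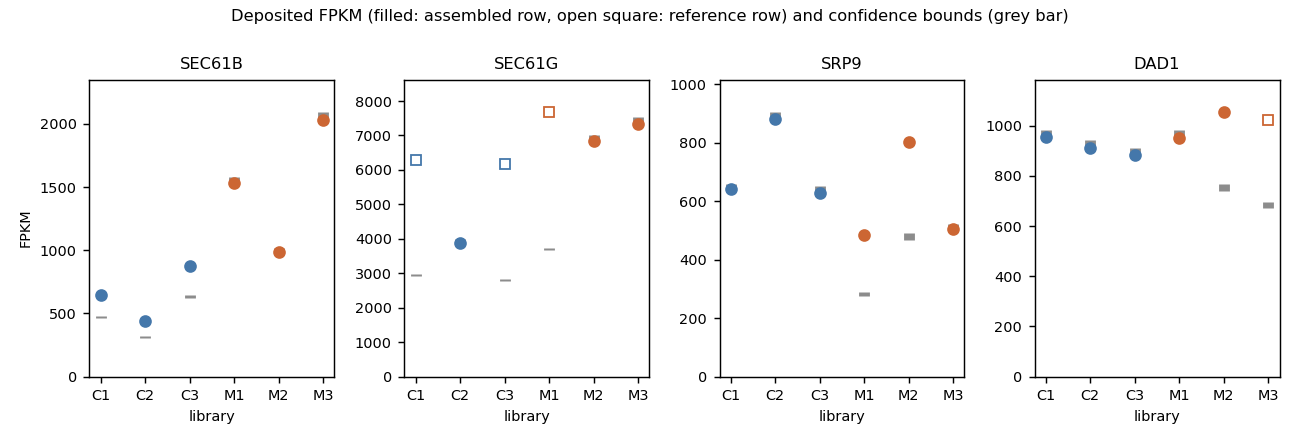
For SEC61B, SEC61G, SRP9 and DAD1, points give the deposited FPKM of each library (C control, M MAT2A-inhibited) and grey bars the deposited confidence bounds, on a linear axis from 0. Filled points are models assembled in that library and open squares reference models. Values lie well above their bounds in C1 to C3 of SEC61B, in C1, C3 and M1 of SEC61G, in M1 and M2 of SRP9 and in M2 and M3 of DAD1.

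Of the other channel partners, SEC63, which works with the lumenal chaperone HSPA5, was at 33.9, 29.1 and 23.5 FPKM against 29.0, 39.7 and 38.5 FPKM. SEC62 could not be tested, because MAT2A-inhibited morula 3 joins it with MYNN in 1 row at 114 FPKM. In the other libraries SEC62 was at 77.0, 84.2 and 101 FPKM in the 3 controls, and at 60.7 and 102 FPKM in the 2 treated embryos.

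The TRAP complex, which helps some signal peptides open the channel, is made of SSR1 to SSR4, and their values lay on both sides. SSR1 was at 57.1, 75.8 and 61.0 FPKM in the control embryos, and 68.1, 97.7 and 122 FPKM with FIDAS-5 (0.53 ± 0.27, limma adjusted p = 0.755). SSR3 was at 596, 495 and 567 FPKM against 487, 769 and 972 FPKM, and SSR2 was at 111, 130.1 and 118 FPKM against 119.8, 138 and 174 FPKM. In all of SSR1, SSR2 and SSR3 the high values were those of MAT2A-inhibited morulae 2 and 3, and morula 1 lay within the controls for SSR1 and SSR2 and just below them for SSR3. Without morulae 2 and 3 the log2 fold change of SSR3 was -0.18.

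SSR4, on chromosome X (39925628 to 39929382), showed the opposite order. It was at 885, 635 and 782 FPKM without the inhibitor and 739, 300.5 and 588 FPKM with it (-0.58 ± 0.33, limma adjusted p = 0.78). The 2 lowest values were those of the embryos with Y-linked transcripts, and the third treated embryo lay within the controls. In the same 2 libraries the row of SSR4 started further upstream and overlapped IDH3G, and in all 6 libraries its FPKM lay above its bounds. MAGT1, the other X-linked gene of the 68 (79554905 to 79604240), had the same order, at 77.7, 49.1 and 59.1 FPKM against 55.9, 23.4 and 44.8 FPKM (-0.63 ± 0.35, limma adjusted p = 0.779). The row of MAGT1 had the same ends in all 6 libraries. Without MAT2A-inhibited morula 2 the log2 fold changes of SSR4 and MAGT1 were -0.21 and -0.28, and without both morulae 2 and 3 they were -0.04 and -0.12. MAGT1 carries the oxidoreductase function of one form of oligosaccharyltransferase. The FPKM of EIF1AY, a Y-linked gene, was 38.2 and 107 in morulae 2 and 3 and 0 in the others.

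**Figure D3:**
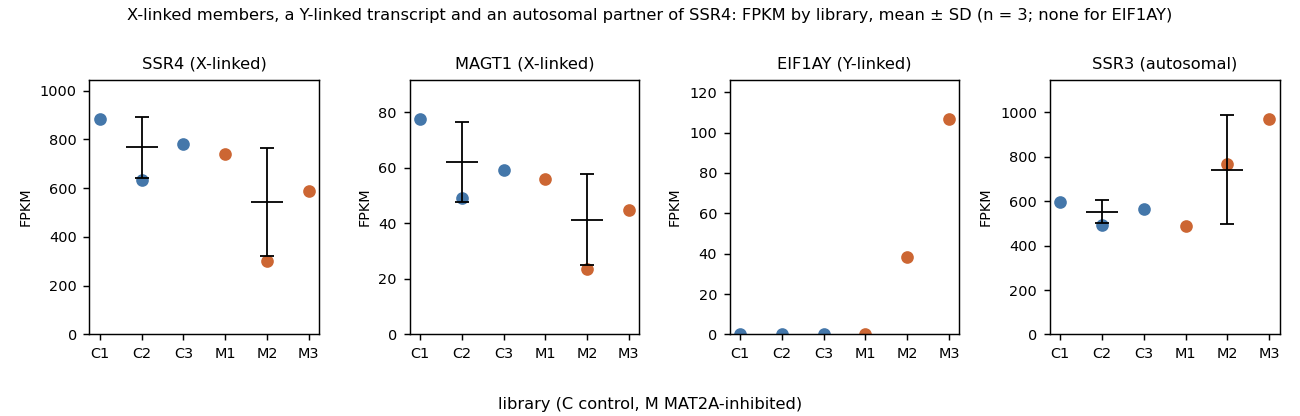
FPKM by library (C control, M MAT2A-inhibited) for the X-linked SSR4 and MAGT1, the Y-linked EIF1AY and the autosomal SSR3. Horizontal marks and bars give mean ± SD of 3 libraries, except for EIF1AY, which has none. SSR4 and MAGT1 are lowest in M2 and M3, where EIF1AY is present and SSR3 is highest.

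Signal peptidase had 4 of 4 tested genes above 0. SEC11C, one of its catalytic subunits (chromosome 24, 58659025 to 58670238), was at 116, 114 and 109 FPKM in the 3 controls, compared with 128, 194 and 201 FPKM in the treated embryos (0.59 ± 0.23, limma adjusted p = 0.746). MAT2A-inhibited morula 1 lay only just above the controls, and without morulae 2 and 3 the log2 fold change was 0.18. SEC11A, the alternative catalytic subunit, differed little between groups, at 141 to 169.8 FPKM against 147 to 185 FPKM.

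SPCS3, an accessory subunit, was at 551, 829 and 804 FPKM in the control embryos, and 812, 1182 and 3151 FPKM with FIDAS-5 (1.01 ± 0.46, limma adjusted p = 0.75). The last value was the highest by far, and without that embryo the log2 fold change was 0.45. SPCS1 was steady, at 342, 354 and 395 FPKM against 344, 421 and 401 FPKM.

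Oligosaccharyltransferase had 5 of 6 tested genes above 0, with a median log2 fold change of 0.13. DAD1, a small core subunit, was at 955, 912 and 883 FPKM without the inhibitor and 952, 1056 and 1022 FPKM with it (0.14 ± 0.14, limma adjusted p = 0.844). By bound midpoints its difference had the opposite sign, with 754 and 684 FPKM in morulae 2 and 3 and 895 FPKM or more in the others (log2 fold change -0.23). OSTC, which links the enzyme to the channel, was at 480.4, 719 and 577 FPKM against 515, 1013 and 736 FPKM, with overlap. RPN1, RPN2 and DDOST, further core subunits, had log2 fold changes of 0.26, 0.03 and 0.12.

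COPII had 6 of 9 tested genes above 0, with a median log2 fold change of 0.09. SAR1A, the GTPase that starts the coat, was at 318, 200.5 and 218 FPKM against 227, 320 and 232 FPKM, and SAR1B had a log2 fold change of -0.17. SEC31A, of the outer cage, was at 31.2, 31.7 and 40.1 FPKM in the 3 controls, compared with 53.0, 36.4 and 56.9 FPKM in the treated embryos (0.48 ± 0.26, limma adjusted p = 0.772). SEC24A, which selects cargo, was at 16.8, 14.9 and 17.1 FPKM against 27.2, 29.9 and 16.3 FPKM (0.52 ± 0.29). SEC23A, its inner-coat partner, was at 10.3, 7.04 and 7.74 FPKM against 9.26, 2.68 and 3.85 FPKM (-0.71 ± 0.42, limma adjusted p = 0.782). SEC13, of the outer cage, SEC24C, a further cargo adaptor, and SEC23IP, a partner of SEC23, had log2 fold changes of 0.13, 0.08 and 0.51, with overlap.

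SEC23B, the paralog of SEC23A, split into 2 levels that crossed the groups. It was at 21.3, 381 and 506 FPKM in the control embryos, and 424, 298 and 25.1 FPKM with FIDAS-5. In the 4 libraries with 298 FPKM or more its row ended 3445 to 3462 bases beyond the shortest row. In control 1 and MAT2A-inhibited morula 3 it ended 149 and 0 bases beyond, and a separate unannotated row of 1827 and 1669 bases lay downstream, at 573 and 406 FPKM. Adding the FPKM of that row gave 594, 381 and 506 FPKM against 424, 298 and 431 FPKM (log2 difference -0.36, exact permutation p = 0.3). Whether the downstream row belongs to SEC23B was not tested, and FPKM of rows of unlike length do not strictly add. The level of SEC23B itself is therefore uncertain in the 4 libraries with a long row. The within-group SD of SEC23B on the log2 scale was 2.35, against a median of 0.33 over the 57 genes.

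COPI had 5 of 7 tested genes above 0, with a median log2 fold change of 0.35. COPA, the alpha subunit (chromosome 3, 9468431 to 9512490), was at 18.4, 18.6 and 21.3 FPKM without the inhibitor and 25.9, 28.0 and 32.5 FPKM with it. The means were 19.4 ± 1.63 and 28.8 ± 3.39 FPKM (SD, n = 3, exact permutation p = 0.1), with a log2 fold change of 0.54 ± 0.23 (limma adjusted p = 0.746). COPB1, the beta subunit, was at 41.0, 87.2 and 55.4 FPKM against 65.1, 74.6 and 86.3 FPKM, and ARCN1, the delta subunit, at 28.3, 61.2 and 48.6 FPKM against 46.1, 71.0 and 64.5 FPKM. Both overlapped. COPB2 had a log2 fold change of -0.46 and COPZ1, the small zeta subunit, one of 0.27. In all 6 libraries the row of ARCN1 overlapped UPK2, that of COPB2 overlapped MRPS22 and that of COPZ1 overlapped MIR148B.

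COPG1, the gamma subunit, had the largest log2 fold change of the 57 genes, 1.52 ± 0.94 (limma adjusted p = 0.785), and it rested on 1 library. It was at 3.27, 2.88 and 3.18 FPKM in the 3 controls, compared with 64.9, 3.86 and 4.12 FPKM in the treated embryos. Only in MAT2A-inhibited morula 1 was its row an assembled model, ending 187 bases beyond the reference model of the other 5 libraries. Without that library the log2 fold change was 0.28. Its paralog COPG2 spanned 1.66 to 4.41 FPKM without and 0.5 to 4.01 FPKM with the inhibitor. The row of COPG2 overlapped a row of MEST only in MAT2A-inhibited morula 1, where it was at 4.01 FPKM. COPE was not tested, because MAT2A-inhibited morula 1 joins it with CERS1 at 65.7 FPKM. In the other libraries COPE was at 64.4, 49.2 and 77.0 FPKM in the 3 controls, and at 76.4 and 78.0 FPKM in the 2 treated embryos.

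**Figure D4:**
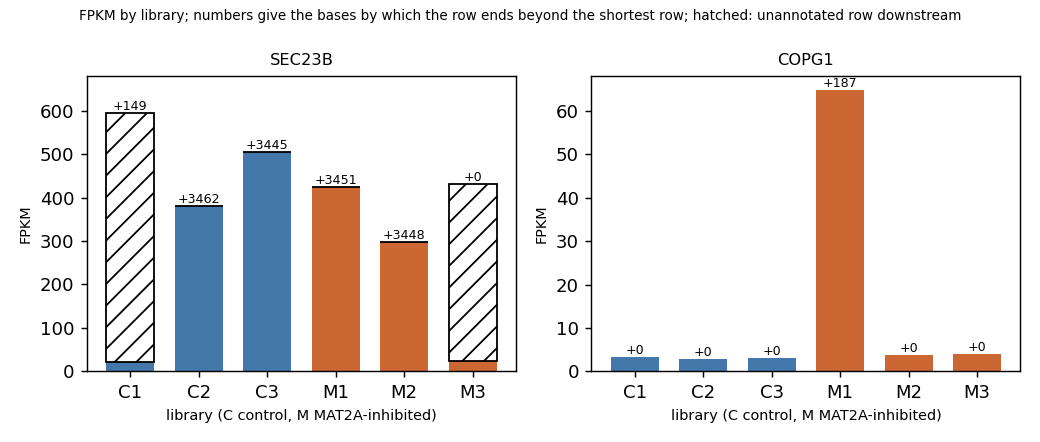
Bars give the FPKM of SEC23B and COPG1 in each library (C control, M MAT2A-inhibited) from 0, and the number on each bar the bases by which its row ends beyond the shortest row of that gene. Hatching adds the unannotated row downstream of SEC23B. High SEC23B values occur where the row is long, and the single high COPG1 value where the row is 187 bases longer.

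Among cargo receptors, SURF4, which loads soluble cargo into COPII vesicles (chromosome 11, 104323085 to 104334584), was at 7.43, 9.71 and 12.0 FPKM in the control embryos, and 14.9, 22.1 and 22.3 FPKM with FIDAS-5. The means were 9.71 ± 2.28 and 19.8 ± 4.19 FPKM (SD, n = 3, exact permutation p = 0.1), with a log2 fold change of 0.96 ± 0.30 (limma adjusted p = 0.701). Its rows were assembled models in all 3 controls and reference models in all 3 treated embryos, so the kind of model and the treatment cannot be told apart. Bound midpoints gave the same log2 fold change, 0.96.

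The TMED proteins, p24 receptors that cycle between both coats, were mostly steady. TMED10 was at 35.7, 30.2 and 38.7 FPKM without the inhibitor and 40.8, 43.0 and 49.7 FPKM with it (0.35 ± 0.22, limma adjusted p = 0.792), and its groups did not overlap. TMED2, with which it pairs, was the most abundant, at 240.5, 209.9 and 228 FPKM against 228, 265 and 223 FPKM. TMED7 was at 56.2, 48.3 and 84.6 FPKM against 68.7, 80.1 and 95.3 FPKM, and TMED6 at 21.2, 7.83 and 9.30 FPKM against 14.7, 26.9 and 18.8 FPKM. The row of TMED6 overlapped a row of NIP7 in all 3 controls and in no treated embryo. That overlap and the treatment cannot be told apart. TMED1, TMED3, TMED4, TMED5 and TMED9 had log2 fold changes between -0.25 and 0.14.

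The SEC22 genes were lower or level in value. SEC22C was at 5.89, 7.78 and 4.38 FPKM in the 3 controls, compared with 5.08, 3.09 and 1.95 FPKM in the treated embryos (-0.72 ± 0.37, limma adjusted p = 0.77). SEC22A was at 23.9, 28.9 and 11.3 FPKM against 15.7, 15.3 and 10.7 FPKM. SEC22B, a SNARE of transport between the endoplasmic reticulum and the Golgi, had a log2 fold change of 0.12. All 3 overlapped between groups.

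**Figure D5:**
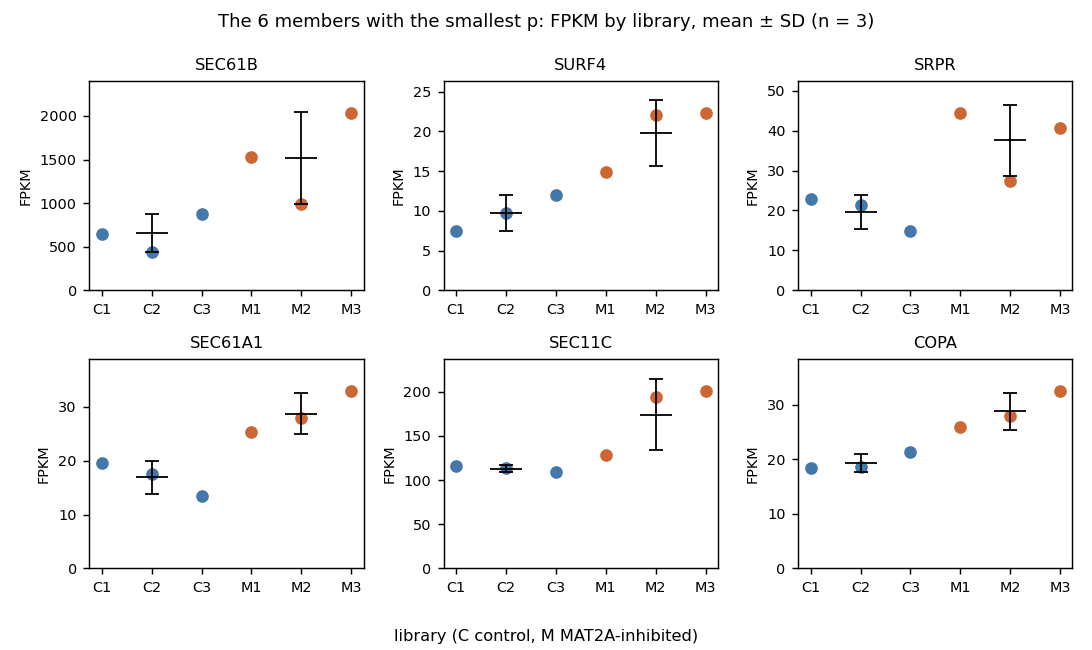
FPKM by library (C control, M MAT2A-inhibited) of the 6 genes with the smallest p, with mean ± SD of 3 libraries as horizontal marks and bars, on linear axes from 0. In each panel the 3 treated values lie above the 3 controls, by a narrow margin for SEC11C in M1 and for SEC61B in M2.

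Genes matched by letters and low genes complete the set. SSRP1 was at 13.5, 17.8 and 16.9 FPKM in the control embryos, and 26.6, 23.4 and 20.5 FPKM with FIDAS-5 (0.52 ± 0.25, limma adjusted p = 0.75). SEC14L1, a lipid-binding protein, was at 10.46, 9.76 and 11.9 FPKM against 11.1, 11.1 and 4.13 FPKM. The 9 genes too low to test were COPZ2 (at most 2.23 FPKM), TMED8 (1.08), SEC16B (0.808), SEC31B (0.666), SEC14L2 (0.185), SEC14L3 (0.071), SEC14L4 (0.079), SEC14L5 (0 in all 6) and SEC1 (0.08).

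Other genes of the same route, taken from 2 lists of partners, had values on both sides. Of 59 tested of 67 listed, 0 passed limma, 34 were above 0 and the median log2 fold change was 0.10. All treated embryos lay above all controls for 6 and below for 6, so 10.2% each, where all genes tested gave 8.27% and 5.18%. For the insertion and glycosylation partners the count was 1 above and 3 below of 20, and for the vesicle partners 5 above and 3 below of 39. An unadjusted limma p below 0.05 was found for 3 higher and 3 lower of the 59, against 3.7% and 2.94% of all genes.

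PREB, the exchange factor that loads SAR1 with GTP, was at 9.83, 9.14 and 9.91 FPKM without the inhibitor and 16.6, 39.9 and 15.2 FPKM with it (log2 fold change 1.10, limma adjusted p = 0.709). In the other direction, BCAP31, an X-linked chaperone of membrane cargo, was at 467, 445 and 396 FPKM against 326, 295 and 288 FPKM (-0.52, limma adjusted p = 0.701). USE1, a SNARE of the return route, was at 93.6, 103 and 91.9 FPKM against 77.3, 52.1 and 62.4 FPKM (-0.60). WRB, a receptor for tail-anchored proteins, was at 57.1, 58.7 and 69.8 FPKM against 44.4, 47.6 and 32.6 FPKM (-0.58). Unlike SSR4 and MAGT1, BCAP31 was also below all controls in the treated embryo without Y-linked transcripts.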

How the data were processed

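RNA from single morulae was sequenced from SMART-Seq HT PLUS libraries. The submitters' processing notes name TopHat2 2.0.14, Cufflinks 2.2.1 and bosTau8; settings and annotation are unstated. For each library the authors deposited Cufflinks gene-level FPKM with its confidence bounds, per the file headers. Models were assembled in each library or kept from the reference. Of the 412 rows of these genes, 82 have an FPKM outside their bounds. Over all annotated rows the share was smaller, 8.28% to 10.65% per library. The 25 genes with models of both kinds, and 10 whose row overlaps another annotated row, are less certain.

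Rows of 1 symbol were summed. Symbols in a merged row in any library, absent from a library or with a status other than OK were left out, leaving 13185. Genes reaching 1 FPKM in 3 or more libraries were tested with limma 3.58.1 (R 4.3.3) on log2(FPKM + 1), with trend, two-sided, Benjamini-Hochberg adjusted over all 7319 genes, threshold 0.05. Fold changes are treated minus control on that scale, which understates changes of low genes. Single values were compared by exact permutation. The test was tried on simulated data, in 10 runs with 200 genes changed among those above 10 FPKM, with 8.3 false calls per run and 0 of the wrong sign. Depth came from bounds of unannotated loci of 100 to 300 bases, whole within 0.05 for 99.7% to 99.9%. Counts per gene were not recovered, so errors are the spread between embryos. Starts are the files' plus 1.

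Members and lists were chosen with earlier results of these data known. Values per library are given for the 24 members with the smallest p, the 2 most abundant of each role, X-linked and untested members, any that reached 10 FPKM in one library while another listed 0 (there were 0), and 4 other pathway genes. Others that are named, and the rows of SRPR, SEC23B and COPG1, were chosen after their values were seen. No gene or promoter sequence was used here. Alternatives were the replicate number as a block, array weights, libraries left out, other scalings and filters, 1 row per symbol, a fit without trend and a pseudocount of 0.1. The bound midpoints, the SRPR and SEC23B rows and 2 subsets were added after the data were seen.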

Additional observations from a re-analysis of the deposited data

How the results depend on the processing

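Under all 19 alternatives run over the 57 genes (54 with a mean of at least 5 FPKM, 58 with TPM and 65 with no filter), 0 were called by limma in either direction, with 3 to 12 at an unadjusted p below 0.05 (12 with array weights, 11 without MAT2A-inhibited morula 1, 3 without morula 3). Over all genes 0 to 8 were called (8 without control 3). The median log2 fold change ran from 0.07 to 0.26; leaving out 1 library gave 0.1059 to 0.2648, and the highest value was without MAT2A-inhibited morula 1. Median-of-ratios scaling moved the median of all genes from 0.0446 to -0.0057 and that of the 57 to 0.0791. Of 647 values of 34 named genes, 628 kept their sign and stayed uncalled. Leaving out 1 library moved the value of 22 of the 34 by over 1.5 times. The 19 of opposite sign fell in 10 genes. With array weights they were SAR1A -0.118 and SEC23B 1.078. With 1 library left out, SAR1A ran from -0.067 to 0.293 (below 0 without control 2, at -0.038, or without MAT2A-inhibited morula 2) and SEC23B from -1.562 to 1.13 (above 0 without control 2, at 0.488, control 3, at 0.692, or morula 3). SRP14 ran from -0.275 to 0.105 (above 0 without control 3, at 0.016, or morula 3), TMED2 from -0.001 (without morula 2) to 0.124, and SEC14L1 from -0.566 to 0.056 (without morula 3). Without both embryos with Y-linked transcripts they were OSTC -0.182, SAR1A -0.08, SEC14L1 0.058, SEC23A 0.147, SEC23B 1.383, SPCS1 -0.076 and SSR3 -0.178, and with bound midpoints DAD1 -0.229. The cause was not tested. By midpoints SRP9 was below all controls in all treated embryos (-0.803, limma adjusted p = 0.762). Same-numbered embryos were not treated as pairs in the main fit. Their deviations correlated at 0.046, 0.103 and 0.191, and those of differently numbered embryos at -0.212 to 0.102. These few values cannot decide whether the numbers mark pairs. With the replicate number as a block 0 of the 57 were called, 9 had an unadjusted p below 0.05, and the median was 0.1354. Both subsets added later gave 0.1354 and 0.1191. Depth per gene is unknown, so low genes carry no counting error here.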
